A study of Homo sapiens with 9 samples.

Results

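The nuclear-encoded genes of the mitochondrial respiratory chain were examined in HepG2 cells, an established human liver cancer line, after KEAP1 had been targeted with Cas9. Members were the rows of the deposited count table whose Entrez number maps to a symbol that starts with NDUFA, NDUFB, NDUFC, NDUFS, NDUFV, UQCR, COX4 to COX8 or ATP5, or to SDHA, SDHB, SDHC, SDHD, CYC1 or CYCS. The rule used names only and no measured value. It found 97 of 12798 rows, of which 89 were protein-coding genes, 6 were pseudogenes and 2 were antisense RNAs. By role, the 89 coding members comprised 7 core and 28 accessory subunits of complex I, 8 complex I assembly factors (NDUFAF genes), 4 subunits of complex II, 10 of complex III, 11 of complex IV, 5 of the F1 part and 12 of the Fo part and stalks of ATP synthase (complex V), cytochrome c (CYCS), the supercomplex factor COX7A2L, the ATP synthase inhibitor ATP5IF1 and the paralogue ATP5MGL. A further 10 coding genes that the rule would take, NDUFA3, NDUFA6 and COX7A1 among them, were not analysed here.

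All 9 libraries came from HepG2 cells transduced with a lentiviral vector carrying Cas9 and a guide RNA and selected with puromycin, with RNA taken 48 h after seeding. The sgCtrl group (3 libraries, treatment label sgAAVS168) had a guide against the AAVS1 safe harbour locus, and the sgKeap1-1 and sgKeap1-2 groups (3 libraries each) had different guides against KEAP1. The sources do not say that single clones were picked or that replicates came from separate transductions, so p-values measure the spread between these libraries, which may be technical. KEAP1 is the adaptor that delivers the transcription factor NRF2 (gene NFE2L2) for degradation, and the comparisons ask how each complex responded to each KEAP1 guide. Counted reads ranged from 3051755 to 4793757 per library.

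The respiratory chain passes electrons from NADH (through complex I) and succinate (through complex II) by way of ubiquinone, complex III and cytochrome c to complex IV, which reduces oxygen. Complexes I, III and IV pump protons across the inner mitochondrial membrane, and ATP synthase uses the return flow to make ATP. Most subunits are encoded in the nucleus, and their promoters are known for sites of nuclear respiratory factor 1 (NRF1), of ETS-family factors such as GABP and of YY1. GABP is also called nuclear respiratory factor 2, which is not the KEAP1-bound NRF2, a factor that binds antioxidant response elements (AREs). The mRNAs of the mitochondrial genome were not analysed here.

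Promoters from RefSeq (GRCh38.p14, 250 bases before to 50 after the gene start) were matched by gene number for 73 of the 89 coding members and searched on both strands for 4 words. The NRF1 word GCGCANGCG was present for 23 of the 73 members (31.5%) against 9.02% of the 27305 genes with a promoter, coding and non-coding. The ETS word CCGGAAG was held by 23 members (31.5%) against 12.2% of all genes, and the YY1 word AAGATGGCG by 9 members (12.3%) against 2.14%. The ARE word TGACNNNGC was found for 13 members (17.8%) against 16.1% of all genes. A word is a description of sequence and not a measured site.

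The promoters of the 3 members that later pass a test, NDUFV1, NDUFV2 and ATP5MC1, are shown with those of SDHB and UQCR11, which hold several of the words, so that both kinds can be seen. Capitals mark any of the 4 words on either strand. The windows are chr11:67606686-67606985 (+) for NDUFV1, chr18:9102449-9102748 (+) for NDUFV2, chr17:48892537-48892836 (+) for ATP5MC1, chr1:17053983-17054282 (-) for SDHB and chr19:1605413-1605712 (-) for UQCR11, each 300 bases from 5′ to 3′ on the gene's strand.
NDUFV1: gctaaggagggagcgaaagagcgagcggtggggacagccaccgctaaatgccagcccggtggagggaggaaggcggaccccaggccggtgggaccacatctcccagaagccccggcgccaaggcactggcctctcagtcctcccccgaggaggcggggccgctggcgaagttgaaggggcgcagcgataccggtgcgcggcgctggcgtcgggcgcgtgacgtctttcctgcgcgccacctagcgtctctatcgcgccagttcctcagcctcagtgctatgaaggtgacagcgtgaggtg
NDUFV2: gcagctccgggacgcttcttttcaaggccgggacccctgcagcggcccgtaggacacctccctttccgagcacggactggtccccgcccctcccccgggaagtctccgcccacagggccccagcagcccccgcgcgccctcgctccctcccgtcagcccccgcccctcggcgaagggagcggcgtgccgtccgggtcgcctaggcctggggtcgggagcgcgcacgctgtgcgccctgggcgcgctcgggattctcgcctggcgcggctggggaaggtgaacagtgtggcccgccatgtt
ATP5MC1: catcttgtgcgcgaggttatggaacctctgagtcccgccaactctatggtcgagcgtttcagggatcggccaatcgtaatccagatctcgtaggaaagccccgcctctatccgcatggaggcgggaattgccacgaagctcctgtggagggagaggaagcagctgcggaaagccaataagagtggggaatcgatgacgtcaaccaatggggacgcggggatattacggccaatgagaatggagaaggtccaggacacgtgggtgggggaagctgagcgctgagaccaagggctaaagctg
SDHB: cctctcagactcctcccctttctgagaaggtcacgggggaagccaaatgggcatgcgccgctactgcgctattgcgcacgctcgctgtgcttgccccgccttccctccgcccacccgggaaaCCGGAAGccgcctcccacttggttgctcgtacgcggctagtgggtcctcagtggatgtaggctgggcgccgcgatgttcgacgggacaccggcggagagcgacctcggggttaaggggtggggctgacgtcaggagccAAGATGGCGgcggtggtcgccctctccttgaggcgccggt
UQCR11: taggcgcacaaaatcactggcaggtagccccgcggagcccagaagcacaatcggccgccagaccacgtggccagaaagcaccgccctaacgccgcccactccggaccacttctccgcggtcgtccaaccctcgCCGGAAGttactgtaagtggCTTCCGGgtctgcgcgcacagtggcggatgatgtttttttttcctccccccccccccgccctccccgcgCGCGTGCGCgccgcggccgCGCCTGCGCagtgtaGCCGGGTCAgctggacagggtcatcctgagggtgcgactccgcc
None of the 4 words occurred in the windows of NDUFV1, NDUFV2 or ATP5MC1, which says only that these letters are not there. SDHB held an ETS word (bases 123 to 129 of the window) and a YY1 word (bases 261 to 269). UQCR11 held 2 NRF1 words (bases 223 to 231 and 242 to 250), 2 ETS words (bases 134 to 140 and 154 to 160) and an ARE word (bases 257 to 265).

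KEAP1 mRNA itself (Entrez 9817) was not called in either KEAP1 group. Its level was 63.3, 89.2 and 85.3 CPM (counts scaled by TMM and set relative to the library's total, the unit of all levels below) in the sgCtrl libraries 1 to 3, 64.1, 62.5 and 53.4 CPM with sgKeap1-1 and 81.9, 85.6 and 73.9 CPM with sgKeap1-2. Reads lie at the transcript's end and need not cover a guide's cut, so this level does not check the edit. NRF2 target genes moved with both guides: 13 of 18 tested rose with sgKeap1-1, where 2.8% of all features did, and 16 of 18 with sgKeap1-2, where 5.96% did. NQO1, an NRF2-controlled quinone reductase, was at 521 ± 15.5 CPM (SD, n = 3) in sgCtrl, 1356 ± 88.4 in sgKeap1-1 and 1738 ± 179 in sgKeap1-2. All 12 hepatocyte-like markers had rows, and their summed level ranged from 37210 to 46178 CPM in sgCtrl, 25065.0 to 32147 in sgKeap1-1 and 22078 to 24883 in sgKeap1-2. Of these, 6 fell with sgKeap1-1 (ALB, APOA1, AFP, FGB, FGA and TF, beside 1.4% of all features), the same genes and HNF4A fell with sgKeap1-2, and TTR rose with both. The part of this shift in the results for the respiratory chain was not tested. Fibroblast markers had rows for 2 of 6 genes, COL1A1 and PDGFRB, and summed to 6.16 to 15.9 CPM. Among leukocyte markers, CD68 was at up to 5.81 CPM and LYZ (lysozyme) at 676 to 2537 CPM over libraries of every group, PTPRC, CD3E and ITGAM had no row, and none was called.

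The library sgKeap1-2 replicate 3 stood apart. In it, 19 of 89 coding members differed by over 1.5-fold from the mean of the other 2 libraries of the group (14 lower, 5 higher), against 0 to 4 members in each of the other 8 libraries, and 21.1% of all features did, against 9.3% to 15.4%. NDUFB3, an accessory complex I subunit, was at 127 and 103 CPM in sgKeap1-2 replicates 1 and 2 and at 33.4 CPM in replicate 3, its largest drop. SDHB, SDHC, SDHD, NDUFS4, UQCRHL and COX7A2L were also among the 14 lower ones. The deviation moved with base composition: over the 89 members, Spearman's rho with the GC content of the last 400 bases (median over a gene's GENCODE protein-coding transcripts) was 0.65 in this library and between -0.62 and 0.42 in the others, and over 10348 features it was 0.34. Libraries of the other groups moved with GC too, with rho over the members of 0.35, -0.4 and 0.22 in sgCtrl replicates 1 to 3. In sgKeap1-1 replicates 1 to 3 it was 0.42, -0.43 and 0.13, so replicate 2 was negative in each group. Members share libraries and a reference, so these are descriptions across genes. The 14 lower members had a median GC of 38% and the 5 higher ones 50.5%, beside 45% for all members. Values without this library are given below beside the member calls, the complex sums and some other members, and its part in the remaining results was not tested.

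**Figure D1:**
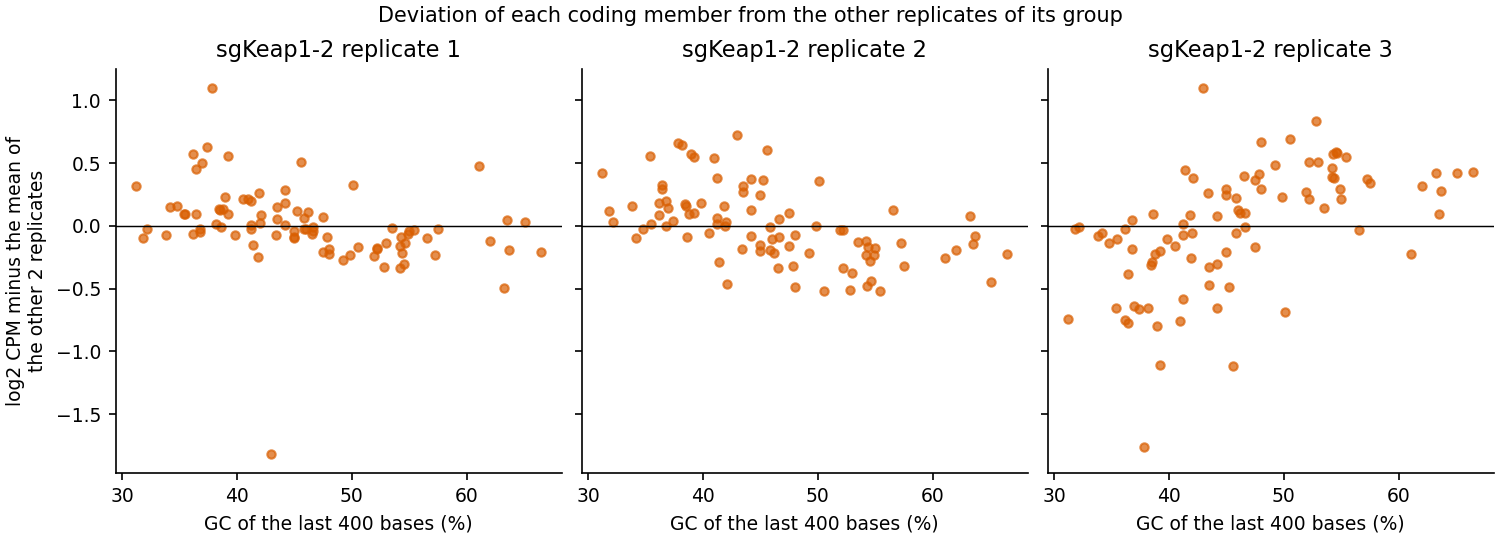
log2 CPM of each coding member in sgKeap1-2 replicates 1, 2 and 3 minus the mean of the other 2 replicates, against the GC percentage of the last 400 transcript bases. The points fall with GC in replicates 1 and 2 (rho -0.53 and -0.62) and rise in replicate 3 (rho 0.65), the 3 panels sharing libraries by construction.

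Levels of the coding members spanned from 2.31 CPM (ATP5MGL) to 1261 CPM (ATP5MC3), with a median of 160.1 CPM against 29.9 CPM over all 11064 tested features. Because each transcript gives reads at its end only, these levels were given no length correction. The part of base composition, and of reads that fit several copies, in differences of level between genes was not tested. The classes differed in level: the median was 375 CPM for the Fo part and stalks of ATP synthase, 345 for F1, 291 for complex IV, 219 for complex III, 139 for complex I accessory subunits, 88.2 for its core subunits, 54 for complex II and 34.5 for the complex I assembly factors. The ranges of these 8 classes overlapped each other. In total the 89 coding members took 1.90%, 1.88% and 1.90% of the counted reads in the sgCtrl libraries, 2.02%, 1.98% and 1.93% with sgKeap1-1 and 2.01%, 1.93% and 2.02% with sgKeap1-2. All 6 KEAP1 libraries lay above sgCtrl in this share, by a small margin that was given no test. In TMM-scaled sums they did not: sgKeap1-1 replicate 3 (19129 CPM) lay below sgCtrl replicates 1 (19188 CPM) and 2 (19508 CPM).

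**Figure D2:**
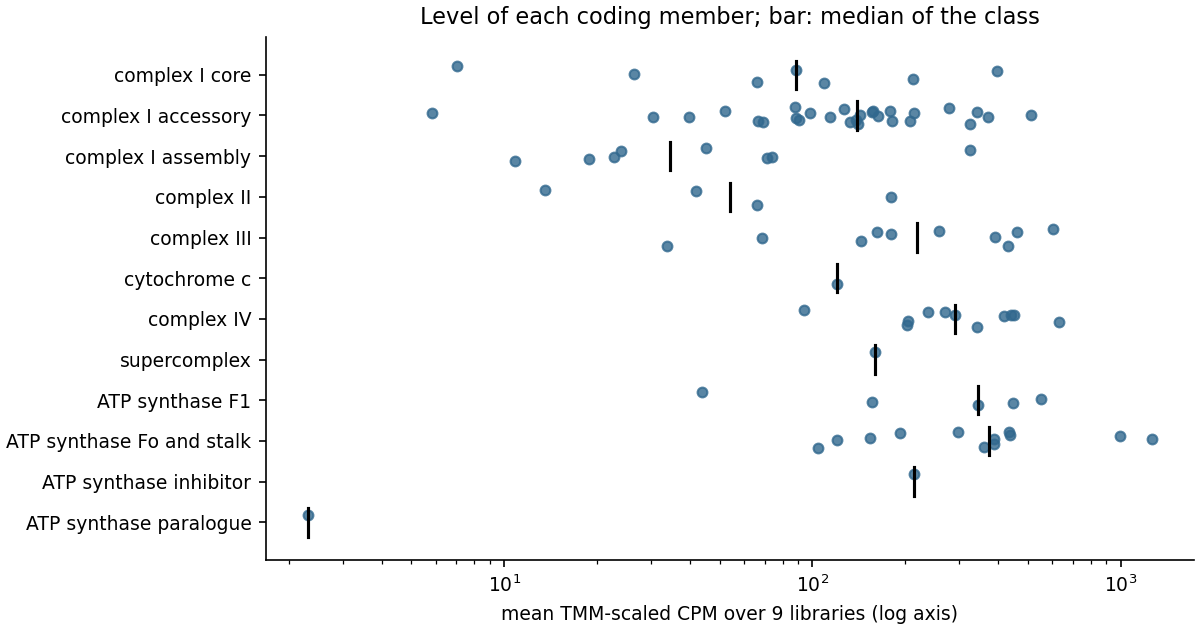
Mean TMM-scaled CPM over 9 libraries (log axis) of each coding member, grouped by class, with a bar at the class median. ATP5MC3 (1261 CPM) and ATP5MG (995 CPM) lie at the top, and NDUFV2, NDUFA7 and ATP5MGL lie below 10 CPM.

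The most and least abundant members of each complex show the range of levels within it. In complex I, NDUFAB1 (the mitochondrial acyl carrier protein) was at 492 ± 26.8 CPM in sgCtrl, 528 ± 24.7 in sgKeap1-1 and 518 ± 11.5 in sgKeap1-2 (SD, n = 3 each, as below). NDUFA7, an accessory subunit, was at the low end with 3.44 to 9.53 CPM in sgCtrl and 3.9 to 7.75 CPM over the 6 KEAP1 libraries. Neither of these members was called in any comparison.

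For complex III, UQCRB, a subunit near the ubiquinone site, lay at 592 ± 80.6, 611 ± 66.1 and 614 ± 21.3 CPM in sgCtrl, sgKeap1-1 and sgKeap1-2, and the core protein UQCRC2 at 453 ± 29.5, 451 ± 52.2 and 475 ± 15.1 CPM. The Rieske iron-sulfur protein UQCRFS1 was at 72.2 ± 1.53, 66.1 ± 6.12 and 67.5 ± 0.923 CPM, the only negative estimate of its complex in the mean of both guides (log2 fold change -0.11, SE 0.11, not called). UQCRHL, at 16 to 47.3 CPM, is nearly identical to UQCRH, so its reads are uncertain.

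In complex IV, COX4I1, a subunit that contacts the catalytic core, was at 571 ± 38.3, 626 ± 59.5 and 703 ± 65.7 CPM in sgCtrl, sgKeap1-1 and sgKeap1-2. Its log2 fold change for the mean of both guides, 0.22 (SE 0.11, adjusted p = 0.243), was the highest of the complex. COX7C lay at 422 ± 15.4, 459.5 ± 76 and 472 ± 30.7 CPM, COX5A at 199 ± 9.19, 207 ± 23.2 and 204 ± 2.14 CPM, and COX6A1 at 92.2 ± 3.66, 94.5 ± 3.5 and 95.6 ± 10.3 CPM. NDUFA4 (COXFA4 in RefSeq), once assigned to complex I and now counted with complex IV, was at 467 ± 42.9, 423 ± 35.9 and 436.5 ± 48.4 CPM. It had the only negative estimate of the 11 complex IV members in the mean of both guides (log2 fold change -0.12, SE 0.11, not called), a value of -0.05 without sgCtrl replicate 2 and -0.07 without sgKeap1-2 replicate 3.

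A further 3 members act between or upon the complexes. Cytochrome c (CYCS), the soluble carrier between complexes III and IV, was at 92.5, 136 and 122 CPM in sgCtrl, 122, 121 and 125 with sgKeap1-1 and 129.9, 119.5 and 113 with sgKeap1-2. RefSeq names 45 pseudogenes after CYCS, so that reads could have been split among copies. ATP5IF1, which inhibits ATP hydrolysis by the synthase, was at 192 ± 17.6, 218 ± 28.4 and 231 ± 44.5 CPM, and COX7A2L, which joins complexes III and IV, at 160.4 ± 29.4, 181 ± 39.5 and 138.5 ± 37.7 CPM. The groups overlapped for all 3 of these genes.

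Against sgCtrl, with no replicate block in the fit, 0 of the 89 coding members passed an adjusted p of 0.05 with sgKeap1-1. Of all 11064 tested features, 4.2% did (edgeR's quasi-likelihood test, Benjamini-Hochberg adjustment over all tested features). At an unadjusted p under 0.05 there were 3 members (NDUFV1, NDUFV2 and ATP5MC1) with 15.0% of all features, and limma-voom called 0 members (3.78% of features) and DESeq2 called 1 (NDUFV1, beside 5.16% of features). When the edgeR fit was blocked on replicate, 2 members were called with sgKeap1-1 (NDUFV1 and ATP5MC1), 5 with sgKeap1-2 and 3 for the mean of both guides, beside 8.83%, 17.7% and 16.6% of all features in the same fit. For sgKeap1-1 the replicate numbers were taken to pair the libraries with sgCtrl, and only the blocked fit uses that pairing. With sgKeap1-2 and no block, 1 of the 89 members was called, ATP5MC1, beside 10.8% of all features, and it was higher, as were 5.96% of features. There limma-voom called 0 members, beside 10.1% of features, and DESeq2 called ATP5MC1, beside 11.6%. For the mean of both guides against sgCtrl, 2 members were called, NDUFV1 and NDUFV2, both higher (2.25% of members, 10.1% of all features), as 5.57% of features were, and no member was called lower by edgeR (1, SDHD, at an unadjusted p under 0.05; 0 by limma-voom and DESeq2), against 4.51% of features. For this mean limma-voom called the same 2 genes, beside 9.5% of features, and DESeq2 called ATP5MC1 as well, beside 10.9%. Between the guides 0 members were called beside 0.0181% of features, 1 member (ATP5PD) had an unadjusted p under 0.05, beside 5.08% of features, and limma-voom and DESeq2 also called 0. The 3 sgCtrl libraries serve in every comparison with a control, so those comparisons are not independent.

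Counted by whether the libraries of 2 groups overlapped, 9 members (10.1%) lay wholly above sgCtrl with sgKeap1-1, beside 11.5% of all features, and 3 (ATP5MC2, NDUFA9 and SDHA) wholly below it, beside 10.3%. With sgKeap1-2, 15 members (16.9%) lay above, beside 14.3% of features, and 5 (ATP5F1A, NDUFA5, NDUFB1, SDHD and UQCRFS1) below, beside 13.7%. All 6 KEAP1 libraries lay above sgCtrl for 6 members (6.74%), COX6B1, NDUFAF1, NDUFS5, NDUFV1, NDUFV2 and UQCR11, beside 8.04% of features, and below it for 0 members, beside 6.74% of features. Between the guides, sgKeap1-2 lay above sgKeap1-1 for COX5B and NDUFAF5, where 5.5% of features did, and below it for ATP5PD, NDUFA2 and NDUFB3, where 4.93% did. Against sgCtrl, the members' shares were near those of all features for higher values and under them for lower ones.

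NDUFV1 (Entrez 4723; GRCh38 chr11:67606936-67612554) encodes the complex I core subunit that binds NADH and FMN. It was measured at 50.3, 55.1 and 49.9 CPM in the sgCtrl libraries, 78.4, 83.9 and 67.6 CPM with sgKeap1-1 and 86.8, 61.7 and 62.5 CPM with sgKeap1-2. All 6 KEAP1 libraries lay above all 3 sgCtrl libraries. The log2 fold change was 0.50 (SE 0.14, adjusted p = 0.0354) for the mean of both guides, 0.57 (SE 0.16, adjusted p = 0.0628) with sgKeap1-1 and 0.44 (SE 0.16, adjusted p = 0.103) with sgKeap1-2, and these adjusted p-values are edgeR's. With a replicate block the adjusted p was 0.014 with sgKeap1-1 and 0.0408 with sgKeap1-2, both then called. Without sgKeap1-2 replicate 1 the sgKeap1-2 value was 0.26 (adjusted p = 0.369, no block). The call of NDUFV1 for the mean was lost without sgCtrl replicate 1 (adjusted p = 0.15), 2 (0.0675) or 3 (0.149), without sgKeap1-1 replicate 1 (0.0719) or 2 (0.0602) and without sgKeap1-2 replicate 1 (0.0677), while the log2 fold change stayed between 0.42 and 0.55. Without sgKeap1-2 replicate 3 the value was 0.54 (adjusted p = 0.0143).

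NDUFV2 (Entrez 4729; GRCh38 chr18:9102699-9134341) encodes the iron-sulfur partner of NDUFV1 in the NADH-oxidising module. Its level was 5.56, 3.4 and 3.62 CPM in sgCtrl, 6.82, 9.59 and 9.2 CPM with sgKeap1-1 and 7.39, 9.02 and 8.72 CPM with sgKeap1-2. Each KEAP1 library was again above each sgCtrl library, at a depth of only 10 to 44 reads. The log2 fold change was 0.99 (SE 0.27, adjusted p = 0.0293 by edgeR) for the mean of both guides, 1.00 (SE 0.30, adjusted p = 0.0809) with sgKeap1-1 and 0.98 (SE 0.30, adjusted p = 0.0512) with sgKeap1-2, the last at an adjusted p of 0.0415 with a replicate block. Without sgCtrl replicate 2 or 3, sgKeap1-1 replicate 2 or 3 or sgKeap1-2 replicate 2 the adjusted p for the mean was 0.113, 0.14, 0.0546, 0.0514 and 0.0526 in that order, with log2 fold changes of 0.87 to 1.26 over all 9 omissions. Without sgKeap1-2 replicate 3 the log2 fold change was 0.98 (adjusted p = 0.0344). The antisense row NDUFV2-AS1 held 4 to 17 reads and was not tested, and the strand setting of the counting is not given in the sources used here, so reads of the 2 genes may be mixed.

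NDUFV3, the accessory subunit of the same module, was at 145 ± 9.27 CPM in sgCtrl, 156 ± 24.4 with sgKeap1-1 and 189.6 ± 23.5 with sgKeap1-2. The sgKeap1-2 libraries lay above sgCtrl and the sgKeap1-1 libraries overlapped it. With sgKeap1-2 its log2 fold change of 0.39 (SE 0.14) had an adjusted p of 0.108 in edgeR's test and was not called, and with a replicate block the adjusted p was 0.0454. NDUFS1, an iron-sulfur core subunit of this module too, had a negative estimate for the mean of both guides (log2 fold change -0.17, and -0.11 without sgKeap1-2 replicate 3), at 118 ± 8.31 CPM in sgCtrl, 107 ± 7.72 in sgKeap1-1 and 101.5 ± 15.9 in sgKeap1-2, and was not called either.

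ATP5MC1 (Entrez 516; GRCh38 chr17:48892787-48895871) encodes subunit c, which forms the rotating ring of ATP synthase. The sgCtrl libraries had 316, 259 and 336 CPM, the sgKeap1-1 libraries 431, 330.1 and 426 CPM and the sgKeap1-2 libraries 435, 364 and 590.4 CPM. The sgKeap1-2 values did not overlap sgCtrl, and sgKeap1-1 replicate 2 lay below sgCtrl replicate 3. The log2 fold change was 0.61 (SE 0.18, adjusted p = 0.0386 by edgeR) with sgKeap1-2, 0.38 (SE 0.18, adjusted p = 0.324) with sgKeap1-1 and 0.50 (SE 0.15, adjusted p = 0.0589) for the mean of both. With a replicate block the adjusted p was 0.0297 with sgKeap1-1, 0.000536 with sgKeap1-2 and 0.00104 for the mean. The sgKeap1-2 call was lost by limma-voom (adjusted p = 0.055) and with only the compared groups in the edgeR fit (0.0514). Without sgKeap1-2 replicate 3, the highest library, the sgKeap1-2 value was 0.40 (adjusted p = 0.101, no block). Its call was also lost without sgCtrl replicate 1 (adjusted p = 0.103), 2 (0.14) or 3 (0.0666), sgKeap1-1 replicate 1 (0.055) or 3 (0.0548) or sgKeap1-2 replicate 1 (0.0716), so that it held in 2 of the 9 omissions.

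The genes ATP5MC1, ATP5MC2 and ATP5MC3 encode precursors that are cut to the same mature subunit c. ATP5MC3 was the most abundant member of all, at 1161, 1409 and 1297 CPM in sgCtrl, 1212.5, 1375 and 1244 with sgKeap1-1 and 1271, 1276 and 1108 with sgKeap1-2. ATP5MC2 lay at 452 ± 5.12, 422 ± 25.8 and 445.5 ± 87.7 CPM in sgCtrl, sgKeap1-1 and sgKeap1-2. Neither was called. ATP5MC1 made up 16.4%, 12.2% and 16.1% of the summed subunit c level in sgCtrl, 20.7%, 15.4% and 20.7% with sgKeap1-1 and 20.9%, 17.7% and 26.3% with sgKeap1-2. The sum itself was 1924 to 2126 CPM in sgCtrl, 2062 to 2143 with sgKeap1-1 and 2055 to 2242 with sgKeap1-2, so the groups overlapped in the sum. RefSeq names 8 pseudogenes after ATP5MC1 and 5 after ATP5MC2.

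**Figure D3:**
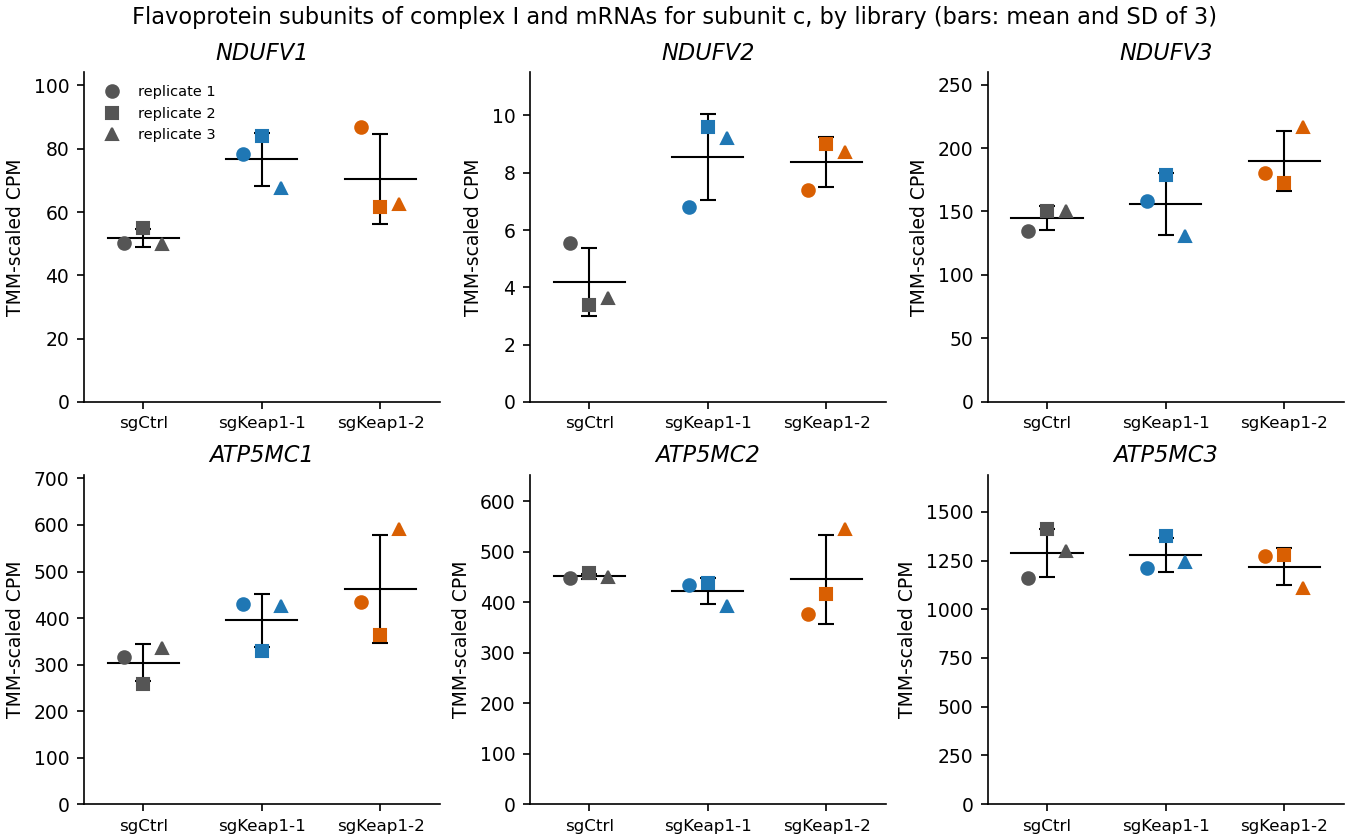
TMM-scaled CPM of the complex I genes NDUFV1, NDUFV2 and NDUFV3 and the subunit c genes ATP5MC1, ATP5MC2 and ATP5MC3 in each library (circle, square and triangle for replicates 1, 2 and 3), with the mean and SD of 3 per group and axes from 0. All KEAP1 libraries stand above all sgCtrl libraries for NDUFV1 and NDUFV2, and sgKeap1-2 replicate 3 is the highest library for ATP5MC1 at 590.4 CPM.

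Across the complexes the estimates were of both signs. The median log2 fold change of the 89 coding members was 0.06 with sgKeap1-1, 0.06 with sgKeap1-2 and 0.05 for the mean of both guides, where all features had -0.001, -0.014 and -0.009. In absolute terms the median was 0.11 for sgKeap1-1 and 0.14 for sgKeap1-2, beside 0.19 and 0.24 over all features. The members' median SE was 0.145 in both comparisons and that of all features 0.211 and 0.212, so the members were also measured more tightly. Their median level was 160.1 CPM against 29.9 CPM over all features. The members were not compared with features of like level, here or for the intervals that follow. The 95% interval of the log2 fold change lay inside 1.5-fold in either direction for 70 of 89 members (78.7%) with sgKeap1-1 and 62 (69.7%) with sgKeap1-2, against 39.2% and 33.1% of all features. For the mean of both guides it was 75 members (84.3%) against 44.3%, and between the guides 70 (78.7%) against 45.6%. These intervals come from the fit without a replicate block, are per gene and are not adjusted for the number of genes.

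By complex, the mean of both guides gave a positive estimate for 10 of 11 complex IV genes (median log2 fold change 0.13) and 9 of 10 complex III genes (median 0.07), none of them called. UQCR11, a small complex III subunit, was the highest of its complex at 229 ± 13.6 CPM in sgCtrl, 265 ± 16.7 in sgKeap1-1 and 281 ± 26.3 in sgKeap1-2 (log2 fold change 0.26, SE 0.10, adjusted p = 0.145 by edgeR, higher in all 6 KEAP1 libraries than in sgCtrl). Complex I subunits divided into 21 positive and 14 negative estimates (median 0.02), with NDUFS4, an accessory subunit beside the NADH-oxidising module, lowest at -0.26 (SE 0.21). Its libraries had 58, 62.3 and 55.5 CPM in sgCtrl, 45.3, 67.8 and 35.2 with sgKeap1-1 and 46.8, 62.7 and 34.2 with sgKeap1-2, so the groups overlapped. The estimate ran from -0.41 without sgKeap1-1 replicate 2 to -0.16 without sgKeap1-2 replicate 3, was -0.17 without sgKeap1-1 replicate 3, and was -0.49 without replicate 2 of every group. For the complex I assembly factors 7 of 8 estimates were positive (median 0.12, none called).

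ATP synthase was split by part. The F1 subunits had 4 of 5 negative estimates (median -0.17) and the Fo and stalk subunits 7 of 12 positive ones (median 0.06), with ATP5MC1 highest and no call by edgeR in the mean of both guides (DESeq2 called ATP5MC1 there, adjusted p = 0.0324). ATP5F1D, of the central stalk, was the lowest at 48.3 ± 4.42, 42.9 ± 5.98 and 40 ± 8.01 CPM in sgCtrl, sgKeap1-1 and sgKeap1-2 (log2 fold change -0.22, SE 0.15). That estimate was -0.15 without sgCtrl replicate 2 or sgKeap1-2 replicate 2, and -0.03 without replicate 2 of every group (an alternative chosen after seeing the data). ATP5MG (subunit g) was at 952 ± 82.8, 982 ± 93.5 and 1052.3 ± 197 CPM, and ATP5PB, the peripheral stalk subunit b, at 106 ± 3.29, 107 ± 5.78 and 100.6 ± 6.27 CPM. The difference between F1 and Fo was not tested.

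**Figure D4:**
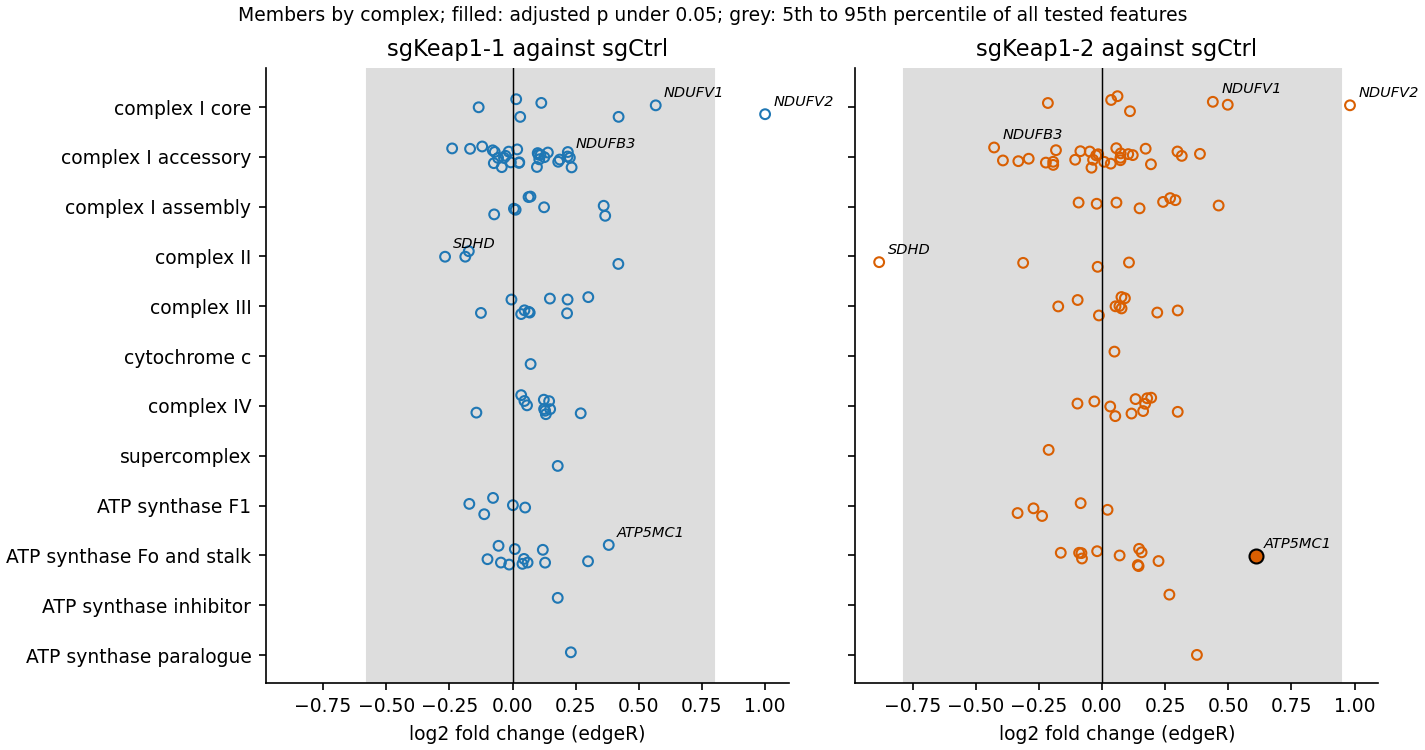
edgeR log2 fold change of each coding member by class for sgKeap1-1 (left) and sgKeap1-2 (right) against sgCtrl, filled where the adjusted p is under 0.05, over a grey band that holds 90% of all tested features. Inside the band lie 88 of 89 members with sgKeap1-1 and 87 of 89 with sgKeap1-2, and ATP5MC1 with sgKeap1-2 is the single filled point.

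Complex II, which also belongs to the tricarboxylic acid cycle, had 3 of 4 negative estimates with either guide. SDHA, the flavoprotein that oxidises succinate, was at 69.7, 66.7 and 70.5 CPM in sgCtrl, 64.8, 64.5 and 54.2 with sgKeap1-1 and 61, 65.6 and 77.8 with sgKeap1-2. SDHB, the iron-sulfur subunit, was at 32.3, 38.5 and 39.9 CPM, 47.5, 48.6 and 51.8 CPM, and 48.6, 48.5 and 22.3 CPM in the same order, so that 5 of 6 KEAP1 libraries were above sgCtrl and sgKeap1-2 replicate 3 was below it. Its log2 fold change for the mean of both guides was 0.26 (SE 0.21), with 0.41 without that library and 0.17 without sgCtrl replicate 1, not called in either case. For the membrane anchors, SDHC had 207, 213 and 183 CPM in sgCtrl, 174, 186.5 and 169 with sgKeap1-1 and 184, 187 and 115 with sgKeap1-2. SDHD had 13.8, 23.8 and 14.2 CPM, 10.7, 17.6 and 14.2 CPM, and 12.3, 9.27 and 6.54 CPM. The sgKeap1-2 libraries of SDHD lay below sgCtrl (log2 fold change -0.88, SE 0.30, adjusted p = 0.0842 by edgeR, not called, and 0.0267 with a replicate block), a value of -0.59 without sgCtrl replicate 2, its highest library, and -0.67 without sgKeap1-2 replicate 3. RefSeq names 7 pseudogenes after SDHD.

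The summed levels of complexes I, II, III and V overlapped between sgCtrl and both KEAP1 groups. Complex I (35 mRNAs) summed to 5301 ± 58.1 CPM in sgCtrl, 5495 ± 160 in sgKeap1-1 and 5452 ± 291 in sgKeap1-2, and complex V (17 mRNAs) to 6584 ± 93.6, 6712 ± 249 and 6751 ± 355 CPM. Complex III (10 mRNAs) stood at 2616 ± 141, 2774 ± 192 and 2810 ± 69.9 CPM, and complex IV (11 mRNAs) at 3414 ± 87.5, 3638 ± 290 and 3712 ± 89.9 CPM. The sgKeap1-2 libraries of complex IV, at 3650.0 to 3815 CPM, lay above the 3313 to 3468 CPM of sgCtrl, and those of sgKeap1-1 (3406 to 3963 CPM) overlapped both. For complex II (4 mRNAs) the sums were 323, 342 and 308 CPM in sgCtrl, 297, 317 and 289.5 with sgKeap1-1 and 306, 310.0 and 222 with sgKeap1-2. As log2 differences of both guides from sgCtrl the sums came to 0.05 for complex I, -0.17 for complex II, 0.09 for complex III, 0.11 for complex IV and 0.03 for complex V, values given without a test. Without sgKeap1-2 replicate 3 they were 0.03, -0.09, 0.08, 0.11 and 0.01 in that order, and complex V was at 0.02 without sgCtrl replicate 1. Compared by replicate number, complex II was below sgCtrl in 3 of 3 pairs with each guide, complexes III and IV were above it in 3 of 3 pairs with each, complex I was above it in 3 of 3 pairs with sgKeap1-1 and 2 of 3 with sgKeap1-2, and complex V in 2 of 3 with each. The same 3 sgCtrl libraries serve for both guides, and these counts were given no test. All 89 coding members summed to 19188, 19508 and 19125 CPM in sgCtrl, 20244, 20723 and 19129 with sgKeap1-1 and 19829, 19653 and 20883 with sgKeap1-2. The sgKeap1-2 sums lay above sgCtrl and the sgKeap1-1 sums overlapped it, at a log2 difference of 0.06 for both guides. In bulk RNA, fewer cells that express a gene and less RNA of it per cell cannot be told apart.

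**Figure D5:**
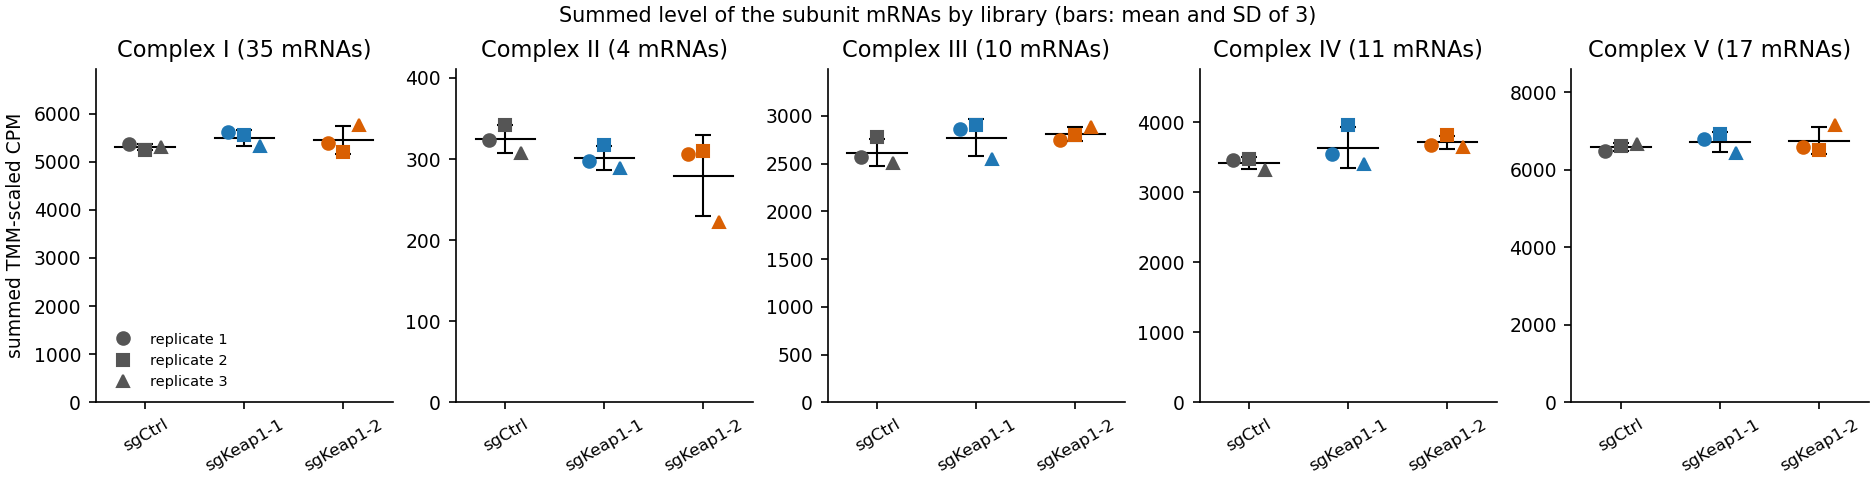
Summed TMM-scaled CPM of the subunit mRNAs of complexes I to V in each library (circle, square and triangle for replicates 1, 2 and 3), with the mean and SD of 3 per group and axes from 0. Groups overlap for complexes I, II, III and V, the sgKeap1-2 sums of complex IV lie above sgCtrl, and sgKeap1-2 replicate 3 has the lowest complex II sum at 222 CPM.

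The 8 rows that are not coding genes were low, and none was called. NDUFB4P12 had the highest level at 28.1 to 39 CPM over the 9 libraries, ATP5F1CP1 ranged from 5.57 CPM (sgKeap1-2 replicate 3) to 17.2 CPM, and NDUFAF2P1 from 11.4 to 16.1 CPM. The other 5 rows had means of 1.72 to 4.06 CPM, and 2 of them, ATP5MGP3 and NDUFV2-AS1, did not pass the filter on low counts. Of the coding members, 52 have at least 1 pseudogene named after them in RefSeq, 247 in all, and how the authors' counting treated reads that fit several copies is not given in the sources used here.

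Genes around the chain were taken from lists of related mitochondrial roles. Among 51 assembly factors outside the naming rule, 3 fell with sgKeap1-2, beside 4.85% of all features lower: COX11 and COA5 for complex IV (38.6 ± 2.35 to 25.2 ± 3.64 CPM, and 56.6 ± 6.22 to 39.9 ± 3.75 CPM, sgCtrl to sgKeap1-2) and ATPAF1 for the F1 part (52.1 ± 0.377 to 36.9 ± 4.5 CPM). COX15, which makes the heme A of complex IV, rose in the mean of both guides (log2 fold change 0.48, SE 0.14, adjusted p = 0.0465 by edgeR), as 5.57% of all features did. Of 19 other enzymes of the tricarboxylic acid cycle, SUCLG1 (succinyl-CoA ligase) and FH (fumarase), on either side of complex II in the cycle, fell with sgKeap1-2. FH went from 101 ± 13.3 CPM in sgCtrl to 78.9 ± 1.97 in sgKeap1-1 and 62.2 ± 2.92 in sgKeap1-2, a log2 fold change of -0.70 (SE 0.13, adjusted p = 0.00285) with sgKeap1-2 and -0.36 (SE 0.13, adjusted p = 0.17) with sgKeap1-1. In replicates 1 to 3 it was at 94.9, 116.7 and 92.6 CPM in sgCtrl and 77.2, 81.0 and 78.4 CPM with sgKeap1-1. No blocked value is given for it.

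Of 16 regulators of mitochondrial biogenesis, GABPB1, a subunit of GABP, fell with sgKeap1-2 (81.1 ± 4.28 to 56 ± 2.39 CPM; log2 fold change -0.53, SE 0.12, adjusted p = 0.0121) and PPARGC1B, a coactivator, rose (1.15 ± 0.942 to 5.48 ± 2.46 CPM; 2.23, SE 0.55, adjusted p = 0.0172). PPARGC1B is a gene of very few reads, and 10.8% of all features were called with sgKeap1-2. Among 73 tested rows of mitochondrial ribosome proteins, MRPS5 rose and MRPL39 fell with sgKeap1-2, beside the same 10.8% of all features. MRPL39 was at 27.6, 37.4 and 37.4 CPM in sgCtrl and at 19.1, 19.5 and 8.48 CPM in sgKeap1-2 replicates 1 to 3. MRPL28 rose in the mean of both, as 5.57% of all features did. Of 30 other carriers and transporters of the inner membrane, 2 rose with sgKeap1-1 and 3 with sgKeap1-2, beside 2.8% and 5.96% of all features. ETFB, a subunit of the flavoprotein that feeds electrons to ubiquinone, was at 1085, 869 and 930.0 CPM in sgCtrl, 1555.5, 1609.5 and 1318 with sgKeap1-1 and 1615, 1653 and 2067 with sgKeap1-2, with no overlap (log2 fold change 0.64, SE 0.14, adjusted p = 0.0144, and 0.89, SE 0.14, adjusted p = 0.000686). SQOR, which passes electrons from sulfide to ubiquinone, rose from 19.5 ± 4.42 CPM to 35.2 ± 7.3 with sgKeap1-1 and 34 ± 2.48 with sgKeap1-2. The uncoupling protein UCP2 rose with sgKeap1-2 (8.84 ± 2.36 to 18.7 ± 2.47 CPM). COQ10A, which binds ubiquinone, fell in the mean of both guides, as 4.51% of all features did (19.2 ± 1.89 CPM in sgCtrl, 8.83 ± 3.93 and 11 ± 2.59 CPM with the guides).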

How the data were processed

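QuantSeq 3′ libraries of 9 HepG2 samples were counted by the authors, who deposited whole-number read counts per gene without normalization. Per the submitters' processing notes, cutadapt 1.16, STAR 2.7.5b and featureCounts 1.6.3 were used. Those notes name hg38 and the study's methods GRCh37; the table holds no coordinates, and the annotation and strand setting are not given in the sources used here. RefSeq positions (GRCh38.p14) describe genes only. Rows without an Entrez number (1.261% to 1.417% of reads) were left out. Members and lists were chosen with earlier results of these data known.

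Counts were scaled by TMM, filtered with filterByExpr (11064 features) and tested with edgeR's quasi-likelihood test (edgeR 4.0.16, R 4.3.3; robust), all 9 libraries in one fit with group as the only factor, Benjamini-Hochberg adjustment over all features and a threshold of 0.05. The mean of both guides is a contrast of that fit. Levels are TMM-scaled CPM; deviations use log2 CPM with a prior count of 2. Scripts were tested on simulated data. Fits were repeated with replicate number as a blocking factor, with DESeq2's size factors or without scaling, with limma-voom (limma 3.58.1) or the DESeq2 Wald test (1.42.0), with looser (1 count in total) and stricter (10 counts in each library) filters, on the compared groups alone and with each library left out. Keeping the rows without an Entrez number and omitting replicate 2 of every group were added after seeing the data. Values in every library, or a mean with SD, were given for members called in any contrast (3 of them), the 2 most and 2 least abundant of complexes I, III, IV and V, complex II, CYCS, ATP5IF1, COX7A2L, NDUFA4 and the largest log2 fold change in each direction per complex; genes of other lists are named where called. A few genes that this rule or the lists take are not reported here. NDUFV3, NDUFS1, NDUFB3, ATP5MC2, NQO1 and the non-coding rows were named after their values were seen. Groups of 3 libraries limit the precision. Libraries with the same replicate number share the start of a library name, whose meaning the labels do not give. Deviations from the group means of same-numbered libraries correlated at 0.2256, 0.3784 and 0.1625 for sgKeap1-1 with sgCtrl, where every pair was over 0.1 and the numbers were taken to pair the libraries. For sgKeap1-2 the pairs of replicate 1 were at -0.0129 with sgCtrl and 0.0304 with sgKeap1-1 and the others over 0.1, so pairing is unsettled there. The main fit, its SEs and its intervals do not use the pairing. Blocked values are given beside the calls of members that they change, and none are given for SEs, intervals or genes of other lists.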

Additional observations from a re-analysis of the deposited data

How the results depend on the processing

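Members called without a replicate block (2 for the mean of both guides, 1 with sgKeap1-2, 0 with sgKeap1-1) moved under several settings. With sgKeap1-1 the count was 1 by the DESeq2 Wald test (5.16% of all features) and 1 with only the groups compared in the fit (5.02%), NDUFV1 each time. With sgKeap1-2 it was 0 by limma-voom (10.1% of features), 0 with only the groups compared in the fit (9.71%) and 2 with at least 10 counts in every library (ATP5MC1 and NDUFV2, beside 9.44%). Leaving out each library in turn gave 0 to 1 members with sgKeap1-1 (NDUFV1 without sgKeap1-2 replicate 1 or 3), 0 to 1 with sgKeap1-2 (NDUFV2 in place of ATP5MC1 without sgCtrl replicate 1), 0 between the guides and 0 to 3 for the mean of both. Without replicate 2 of every group, an alternative chosen after seeing the data, the mean of both gave 1, ATP5MC1, beside 8.29% of all features. The cause of these moves was not tested. The estimates followed under every setting (NDUFV1, NDUFV2, NDUFV3, NDUFS1, NDUFS4, NDUFA4, SDHB, SDHD, UQCR11, UQCRFS1, COX4I1, ATP5MC1 and ATP5F1D, in the contrasts given for them) kept their sign, those of other members were not followed, and the complex sums moved by less than their spread.

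Adding a replicate block gave 2 members with sgKeap1-1 (ATP5MC1, NDUFV1), 5 with sgKeap1-2 (ATP5MC1, NDUFV1, NDUFV2 and NDUFV3 higher, SDHD lower), 0 between the guides and 3 for the mean. Over all features the block moved the calls from 465 to 977, from 1196 to 1956, from 2 to 26 and from 1115 to 1840. Omitting 1 library gave 278 to 688, 764 to 1291, 0 to 2 and 643 to 1409 features in the same order, and between the guides the DESeq2 Wald test called 19 and limma-voom 0.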
